A study of Caenorhabditis elegans with 18 samples.

Results

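The effect of losing FUST-1 alone was examined in whole *Caenorhabditis elegans* by setting the *fust-1* single mutant against wild type. The comparison uses 6 of the 18 RNA-seq libraries of the series, chosen by the genotype in their labels: 3 from *fust-1* mutants and 3 from wild type (N2). Each library was made from poly(A) RNA of synchronized animals at the fourth larval stage, and the replicates of every genotype carry the letters A, B and C. The *fust-1* strain of the study carries csb21, a deletion with a *myo-2*::GFP marker, which labels the pharynx. The labels name only the genotype, and the part of the gene that was removed is not given in the sources used here. The strains were kept at 20 °C. In a last comparison, 3 *fust-1; ceh-14* double mutant libraries are set against 3 *ceh-14* libraries, both lacking *ceh-14*, a LIM homeobox transcription factor. The remaining genotypes of the series are *tdp-1* and *tdp-1; ceh-14*.

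FUST-1 is an RNA-binding protein. Regulators of this kind bind pre-mRNA and mRNA and can influence exon choice, transcription and RNA stability. FUST-1 is strongly expressed in neurons, and the study also saw the tagged protein in nuclei of muscle, intestine, gonad and other tissues. A whole-animal library is dominated by intestine, hypodermis, muscle and germline. Gene counts over all exons, as used here, see changes in mRNA level and not changes in exon choice.

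Counts assigned to genes came to 59761550, 33591733 and 69447549 in *fust-1* A, B and C, against 119814176, 33350107 and 19556372 in wild-type A, B and C. Libraries with the same letter deviated together from their genotype means, so letters were also used as a term in a second fit, called the letter-adjusted fit. Library *fust-1* C stood apart. Its log2 expression correlated with that of the other 5 libraries at 0.937 to 0.963, against 0.966 to 0.989 among those 5. The summed level of ribosomal RNA genes was 47485 CPM (counts scaled to equal library size) in *fust-1* C, against 11304 and 2544 in *fust-1* A and B and 2543 to 8031 in wild type, and 12.19% of its alignments were not unique. The summed level of cytosolic ribosomal protein genes was 153352 CPM in *fust-1* C, against 98413 to 124176 in the other 5. The part of these differences in the results was not tested, and results are therefore also given without *fust-1* C. Whether a whole-animal difference reflects fewer cells of a type or less RNA per cell cannot be told apart.

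Few genes passed the thresholds in *fust-1* animals. Of 16315 genes tested with edgeR's quasi-likelihood test, 1 was dysregulated (an absolute log2 fold change over 1 with an adjusted p under 0.01), which is 0.00613%. It was *ctl-1*, which fell. At an adjusted p under 0.05, 3 genes were called (0.0184%), *ctl-1* and the rises *endu-1* and *haf-6*. Where no other fit is named, a called gene is one that passed this edgeR threshold without the letter. In the letter-adjusted fit 6 genes were called (0.0368%), as *fust-1* itself, the pseudogene WBGene00023391 and *crm-1* were added. DESeq2, the tool of the study, placed 19 of the 25984 genes it fitted past the dysregulation threshold (0.0731%), 15 higher and 4 lower in *fust-1*, with the lower ones being *ctl-1*, *fust-1*, *Y69A2AR.12* and *F20D6.5*. Without *fust-1* C, 0 genes were dysregulated and 3 were called by edgeR, and 335 had an unadjusted p under 0.05.

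**Figure D1:**
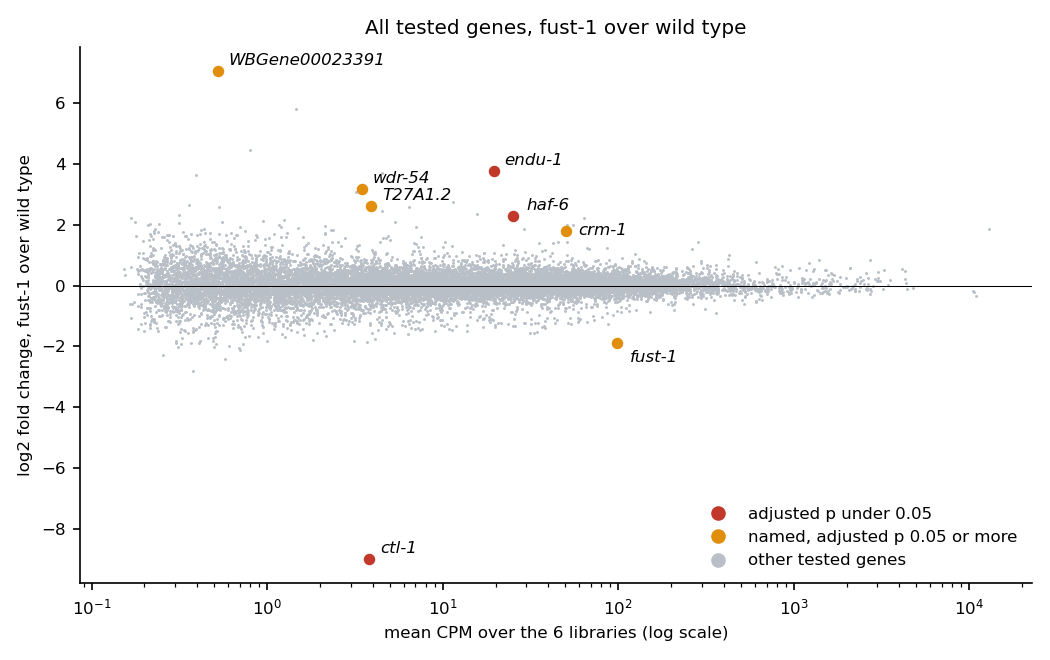
Each point is 1 of the 16315 tested genes, with its mean CPM over the 6 libraries on a log scale and its log2 fold change in *fust-1* over wild type. Red points have an adjusted p under 0.05 in edgeR, orange points are other named genes, and *ctl-1* lies alone at -8.98.

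The *fust-1* transcript was lower in the mutant but still detected. It stood at 51.4, 35.5 and 38.1 CPM in *fust-1* A, B and C, against 157, 144 and 167 CPM in wild-type A, B and C. Every mutant library lay below every wild-type library, and the ratio within a letter was 0.328, 0.246 and 0.228 for A, B and C. This was -1.89 on the log2 scale (SE 0.21), with an adjusted p of 0.0773 in edgeR and of 0.0363 in the letter-adjusted fit. Over all alternatives the adjusted p ran between 1.57e-08 and 0.9999, the highest without both C libraries, and a two-sided exact permutation test gave p = 0.1, the smallest that 3 against 3 libraries allow. Counts are summed over the gene (II:7152581-7155476, plus strand, WBcel235), so the signal left in the mutant cannot be assigned to exons inside or outside the deletion.

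*ctl-1* mRNA was almost absent from *fust-1* animals. *ctl-1* encodes a catalase, an enzyme that splits hydrogen peroxide into water and oxygen. It had 0.0176, 0 and 0.0162 CPM in *fust-1* A, B and C, against 7.84, 7.42 and 7.64 CPM in wild-type A, B and C. These levels rest on 2 counts in the 3 mutant libraries together and on 1303 in wild type. Scaled for depth, the wild-type level was 598 times that of the mutant (95% counting interval 165 to 4941, which covers counting error only). The edgeR fit gave -8.98 on the log2 scale (SE 0.49, adjusted p = 0.00116), which depends on the prior count and is no bound. The call held at an adjusted p of 0.0117 without *fust-1* C and between 0.00273 and 0.0144 over the 6 fits that left out a library, and was lost without both C libraries (0.364), where the log2 fold change was -9.21 and the call returned with the letter as a term (-9.22, adjusted p = 0.0307).

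No other gene around *ctl-1* was called. The 3 catalase genes lie in a row on the minus strand of chromosome II, *ctl-2* at 14299556-14302027, *ctl-1* at 14303568-14306260 and *ctl-3* at 14307798-14310779. *ctl-2*, the peroxisomal catalase, stood at 118, 83.2 and 81.7 CPM in *fust-1* A, B and C, against 61.7, 75.2 and 72.0 CPM in wild-type A, B and C. All 3 mutant libraries lay above the wild-type ones, but the gene was not called (log2 fold change 0.45, adjusted p = 0.9997). *ctl-3* stood at 5.92, 3.84 and 2.61 CPM in *fust-1*, against 6.27, 6.34 and 6.20 CPM in wild type. Here all 3 mutant libraries lay below wild type, again without a call (log2 fold change -0.59, adjusted p = 0.9997). The 3 genes are close copies, so reads that fit more than 1 of them may be missing from or misplaced among these counts. Of the 32 tested genes within 100 kb of *ctl-1*, log2 fold changes ran between -0.59 and 1.14 and none was called. Their lowest adjusted p was 0.9997, and 1 of them (3.13%), *Y54G11A.14*, had an unadjusted p under 0.05, against 1.14% of all tested genes on the higher side and 0.913% on the lower. The end of *fust-1* lies 7148 kb from the start of *ctl-1* on the same chromosome. A change at *ctl-1* carried along by the *fust-1* strain and an effect of losing FUST-1 cannot be told apart in these libraries. Around *fust-1* itself, 52 tested genes within 100 kb had log2 fold changes of -0.68 to 0.69. Of these, 1 (1.92%), *C27H5.2*, had an unadjusted p under 0.05 in edgeR. It starts at II:7155581, just past the end of *fust-1* on the same strand. *C27H5.2* had 20.7, 26.2 and 26.96 CPM in *fust-1*, against 13.4, 16.8 and 15.96 CPM in wild type. All 3 mutant libraries lay above wild type, without a call (log2 fold change 0.69, adjusted p = 0.9997). In *fust-1; ceh-14* it again lay wholly above *ceh-14* (0.48, not called). The cause was not tested.

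**Figure D2:**
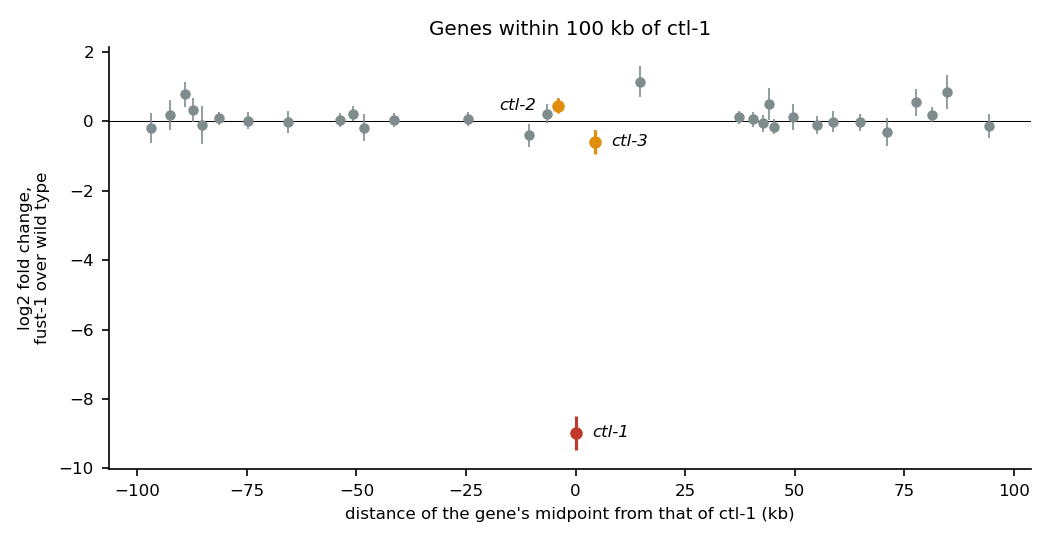
Log2 fold change in *fust-1* over wild type (points, with bars of 1 standard error) against the distance in kb from *ctl-1* for *ctl-1* and the 32 tested genes within 100 kb. *ctl-1* (red) sits at -8.98, while *ctl-2* and *ctl-3* (orange) and the other neighbours lie between -0.59 and 1.14.

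The 2 called rises were of different kinds of protein. *endu-1*, on chromosome I, encodes a member of the EndoU family of endoribonucleases. It stood at 27.6, 31.2 and 50.2 CPM in *fust-1* A, B and C, against 1.93, 3.48 and 2.74 CPM in wild-type A, B and C. The lowest mutant library lay far above the highest wild-type library (3.76 on the log2 scale, SE 0.35, adjusted p = 0.0374, edgeR). *haf-6*, also on chromosome I, encodes a half-molecule ABC transporter that *C. elegans* needs for efficient RNA interference. It stood at 37.4, 37.97 and 50.2 CPM in *fust-1*, against 8.48, 8.35 and 9.35 CPM in wild type. The groups were again apart (2.27, SE 0.23, adjusted p = 0.0403). Without *fust-1* C both rises had an adjusted p of 0.0496, and both calls were lost without *fust-1* B or any 1 wild-type library (0.138 to 0.587 for *endu-1* and 0.217 to 0.637 for *haf-6*). Without both C libraries neither was called (0.9999 each), and with the letter as a term there each had an adjusted p of 0.0368.

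The letter-adjusted fit added *crm-1* and a pseudogene to these rises. *crm-1*, a cysteine-rich transmembrane protein that promotes the BMP-like signalling of body size, stood at 97.8, 71.0 and 66.4 CPM in *fust-1* A, B and C, against 29.5, 18.7 and 19.9 CPM in wild-type A, B and C. The mutant stood at 3.32, 3.80 and 3.33 times its wild-type partner of the same letter. This was 1.80 on the log2 scale (SE 0.27), with an adjusted p of 0.342 in the unadjusted fit and 0.0377 in the letter-adjusted fit (5.48e-05 in DESeq2 and 0.99996 at the highest over all alternatives). Without both C libraries it was 0.9999, and 0.0368 with the letter as a term there. WBGene00023391, an X-linked pseudogene with 72 bases of exon, had 174 counts over the 3 *fust-1* libraries, against 1 count in wild type. Its adjusted p was 0.103 in edgeR and 0.0363 with the letter as a term (1.8e-05 to 0.9999 over all alternatives), and its depth-scaled ratio was 190 (95% counting interval 33.6 to 7533). All 72 bases lie within WBGene00022205, a pseudogene on the opposite strand whose log2 fold change was 0.51 (adjusted p = 0.9997). As strand use in counting is not stated, reads of the pseudogenes cannot be told apart.

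**Figure D3:**
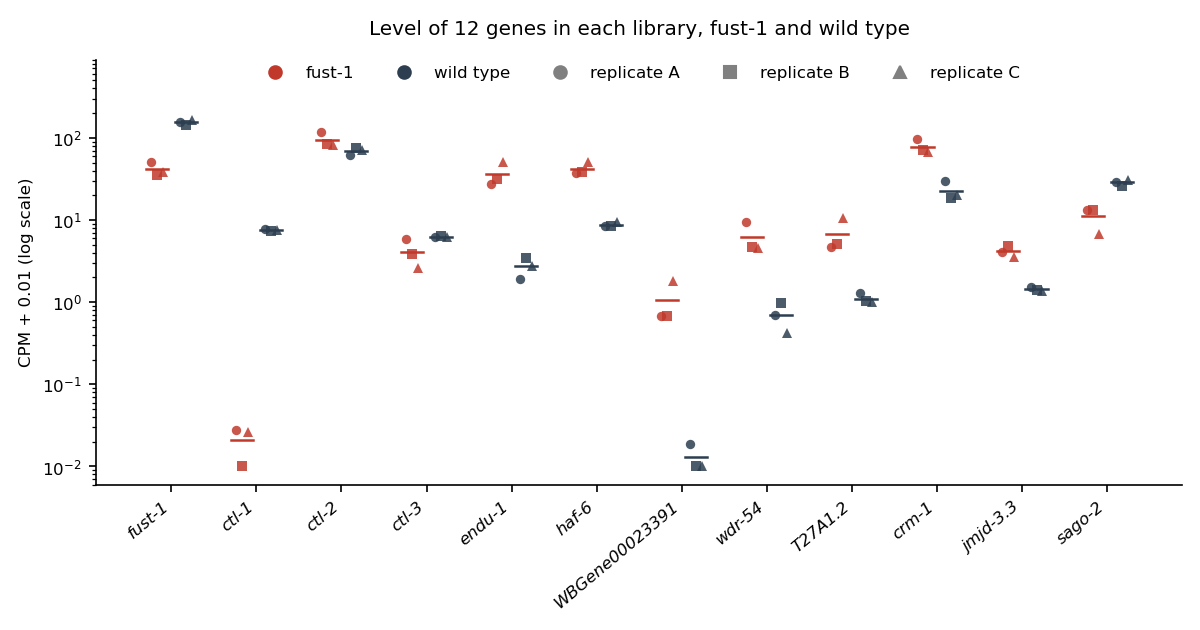
CPM plus 0.01 on a log scale in each library, *fust-1* in red to the left of wild type in dark blue for each of 12 genes, with replicate letters as symbols and lines at the means. *ctl-1* has 0 to 0.0176 CPM in *fust-1*, against 7.42 to 7.84 CPM in wild type, *fust-1*, *ctl-3* and *sago-2* also lie below wild type in all 3 mutant libraries, and the remaining genes lie above it.

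Of the 16315 tested genes, the called ones included, 57 stood higher and 45 lower in every *fust-1* library than in any wild-type library. These counts are of genes with an absolute log2 fold change over 1 and a mean of at least 1 CPM in either genotype. With no limit on fold or level, 411 of the tested genes (2.52%) stood wholly above and 629 (3.86%) wholly below wild type. Libraries split 3 against 3 can be arranged in only 20 ways, so genes without overlap also arise with no effect of genotype. Whether these counts exceed that was not tested. Of the 57 and 45 genes, the 12 with the smallest p in each direction are named. Among the 12 higher ones, *wdr-54*, a WD-repeat protein gene on chromosome X, had 9.44, 4.69 and 4.56 CPM in *fust-1*, against 0.693, 0.963 and 0.413 CPM in wild type. It was not called by edgeR (log2 fold change 3.16, adjusted p = 0.307, and 0.0681 with the letter as a term). *T27A1.2* had 4.67, 5.10 and 10.5 CPM in *fust-1*, against 1.29, 1.019 and 0.981 CPM in wild type (2.60, adjusted p = 0.342). *jmjd-3.3*, of the JmjC family of histone demethylases, had 4.12, 4.80 and 3.52 CPM in *fust-1*, against 1.53, 1.42 and 1.34 CPM in wild type. The gap between the genotypes was part of the rule that picked these 3 genes. They were not called by edgeR's test across 16315 genes. DESeq2, on the same libraries, gave adjusted p-values of 1.57e-08, 7.59e-07 and 0.00278. The other genes of this group were *F08D12.2* (1.94), *C26D10.3* (1.25), *M01H9.2* (1.61), the pseudogene WBGene00044220 (2.15) and WBGene00077683 (5.78, with 0.317, 5.52 and 2.76 CPM in *fust-1*, against 0.0614, 0.0566 and 0 CPM in wild type), each value being a log2 fold change.

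The lower group held *ctl-1*, *fust-1* and 10 genes that edgeR did not call (adjusted p = 0.9997 each). *sago-2* encodes an Argonaute protein that carries secondary small interfering RNAs. It had 13.2, 13.2 and 6.79 CPM in *fust-1* A, B and C, against 29.3, 26.2 and 31.1 CPM in wild-type A, B and C. As the naming rule requires, the highest mutant library stayed below the lowest wild-type library (log2 fold change -1.36, and -1.11 without *fust-1* C). *Y69A2AR.12* had 6.62, 4.36 and 5.90 CPM in *fust-1*, against 12.3, 14.3 and 15.03 CPM in wild type. *Y69A2AR.25*, its neighbour on the opposite strand of chromosome IV, had 5.66, 3.12 and 2.97 CPM in *fust-1*, against 10.4, 10.7 and 10.33 CPM in wild type. These neighbours start 246 bases apart and point away from each other, and both lay lower in all 3 mutant libraries (-1.29 and -1.40). DESeq2 called both (adjusted p = 0.00767 and 0.0459), as did edgeR with all 18 libraries in one fit (0.0178 each). *R03D7.2* (-1.10), *C08E3.13* (-1.44), *ZC266.1* (-1.02), the acyltransferase-like gene *oac-20* (-1.57), *F23F1.2* (-2.11), WBGene00194705 (-1.09) and *F20D6.5* (-1.21) made up the rest. Of the 1341 exon bases of *F20D6.5*, 456 overlap *F20D6.8* on the opposite strand, and DESeq2 called the gene (adjusted p = 0.00425). WBGene00077683 and WBGene00194705 have no entry in the annotation used here.

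DESeq2 placed further genes past its threshold, named here after their values were seen. *idpp-2* had 1.13, 13.9 and 10.28 CPM in *fust-1* A, B and C, against 0.755, 0.566 and 0.620 CPM in wild-type A, B and C (DESeq2 adjusted p = 0.000137, edgeR 0.9997). *cyp-13A4*, a cytochrome P450 gene, had 3.31, 0.469 and 0.746 CPM in *fust-1*, against 0.0176, 0.142 and 0.103 CPM in wild type. *C49F5.7* had 62.5, 51.6 and 202 CPM in *fust-1*, against 16.3, 25.7 and 25.9 CPM in wild type. In each of them 1 mutant library stood apart from the others by several times, while the genotypes did not overlap. *ZK402.1* (log2 fold change 1.95) and the pseudogene WBGene00050903 (3.64) were the others outside the 24 genes above.

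None of 5 other genes that the study names was called. *tdp-1*, the counterpart of human TDP-43, had a log2 fold change of 0.13 (SE 0.20). *ceh-14* was at 0.01 (0.39), the Salvador homolog *sav-1* at 0.19 (0.23), *pqn-41* at -0.10 (0.46) and the C-type lectin gene *clec-190* at 1.47 (0.56). *clec-190* had 0.511, 0.773 and 2.12 CPM in *fust-1*, against 0.395, 0.340 and 0.516 CPM in wild type. In all 5 the genotypes overlapped and the adjusted p was 0.9997.

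Genes related to catalase and to RNA were examined as lists. Among 26 tested antioxidant genes only *ctl-1* was called, and the median log2 fold change was 0.08, beside 0.02 over all genes tested. The glutathione peroxidase gene *gpx-5* had 40.8, 46.6 and 31.1 CPM in *fust-1*, against 59.6, 61.1 and 53.6 CPM in wild type, lower in every library but not called (-0.54, adjusted p = 0.9997). None of 29 peroxisome genes was called (median 0.15). None of 34 other RNA-binding and splicing regulators was called, with a median of -0.04 and none with an unadjusted p under 0.05 in edgeR. Among 34 ABC transporter genes *haf-6* was the only call (median -0.03).

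By edgeR, none of 24 pan-neuronal genes, 21 genes of neurotransmitter identity and 120 neuropeptide genes was called, with median log2 fold changes of -0.15, 0.02 and 0.03. Among the 120 neuropeptide genes, *nlp-31*, which is also counted as an antimicrobial peptide gene, had 11.4, 11.92 and 55.2 CPM in *fust-1* A, B and C, against 5.92, 5.55 and 3.72 CPM in wild-type A, B and C. The mutant libraries lay above wild type, with *fust-1* C by far the highest, and DESeq2 called the gene (adjusted p = 0.0282) while edgeR did not (log2 fold change 2.35, adjusted p = 0.9997, and 1.21 without *fust-1* C, adjusted p = 0.9999). In the *ceh-14* background *nlp-31* lay the other way, without a call. It had 4.65, 2.74 and 4.62 CPM in *fust-1; ceh-14*, wholly below the 5.35, 6.55 and 5.40 CPM in *ceh-14*.

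Cuticle collagen genes stood lower in *fust-1* as a list, most clearly within replicate letters. The cuticle is a collagen matrix that is rebuilt at every larval molt, and many collagen genes oscillate with the molting cycle. None of 144 tested collagen genes was called. Their median log2 fold change was -0.48, and -0.47 without *fust-1* C, beside 0.02 and -0.01 over all genes tested. Within letters, 79 of them (54.9%) were lower in *fust-1* than in wild type in all 3 letters, beside 15.1% of all genes tested, and 7 (4.86%) were higher in all 3, beside 12.6%. Their median log2 ratio was -0.997, -0.49 and -0.30 in letters A, B and C. In the letter-adjusted fit 68 had an unadjusted p under 0.05 on the lower side and 1 on the higher side, beside 4.04% and 1.76% of all genes, and none passed adjustment. Without both C libraries, 77 of 144 (53.5%) had an unadjusted p under 0.05 on the lower side, beside 5.51% of all genes.

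The collagens with the smallest p in that fit, named after their values were seen, show the pattern. *col-63* had 14.4, 32.6 and 5.61 CPM in *fust-1* A, B and C, against 42.4, 94.4 and 18.2 CPM in wild-type A, B and C. *col-138* had 27.2, 55.9 and 10.6 CPM in *fust-1*, against 79.5, 124.3 and 25.7 CPM in wild type. Both genotypes ranked the letters B, A, C, so the groups overlapped while each mutant library lay below its partner (adjusted p = 0.0998 and 0.163 in the letter-adjusted fit). The most abundant collagens behaved otherwise. *col-20* had 3088, 3312 and 8716 CPM in *fust-1*, against 3563, 3374 and 3911 CPM in wild type, and the summed collagen level was 89744 CPM in *fust-1* C, against 47298 and 56129 in *fust-1* A and B and 53695 to 60189 in wild type. The list's median and its sum therefore differ in direction in letter C.

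Other lists of the larval epidermis and pharynx had low medians too. Of 85 tested molting-cycle genes, 42 (49.4%) were lower in all 3 letters, and the medians were -0.62, -0.18 and -0.61 in letters A, B and C. Of 26 pharynx genes, 15 (57.7%) were lower in all 3 letters, with medians of -0.92, -0.20 and -1.13. These shares stand beside the 15.1% of all genes given above. The summed pharynx level was 433, 208 and 156 CPM in *fust-1* A, B and C, against 524, 190 and 117 CPM in wild-type A, B and C. The median and the sum of the pharynx list therefore differ in direction in letters B and C. No member of either list was called. *grl-27*, a ground-like gene of the molting list, had 1.11, 1.08 and 0.713 CPM in *fust-1*, against 2.14, 2.86 and 1.39 CPM in wild type. Heterochronic genes, which set stage-specific timing, had a summed level of 186 CPM in *fust-1* C, against 540 and 360 in *fust-1* A and B and 292 to 506 in wild type. Of 11 such genes, 3 (27.3%) were lower in all 3 letters, beside 15.1% of all genes. The part that the exact stage of each culture plays in these values was not tested.

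**Figure D4:**
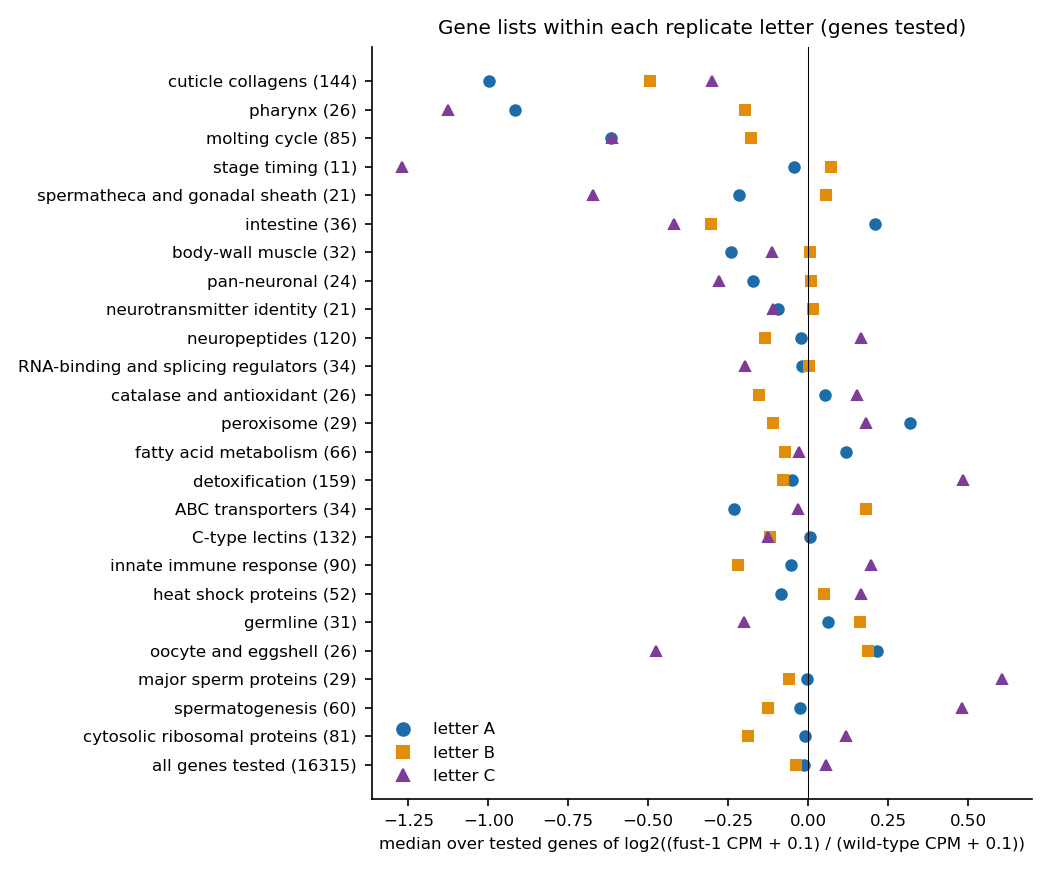
Median log2 ratio of *fust-1* over wild type (CPM plus 0.1) within letters A, B and C for 24 gene lists and for all genes tested, with the number of tested genes in brackets. Cuticle collagens, pharynx and molting-cycle genes lie below 0 in all 3 letters, while stage timing and sperm lists differ mainly in letter C.

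Tissue and reproductive lists showed no shared direction across letters. Body-wall muscle (32 genes, median -0.12), intestine (36, 0.0042), germline (31, 0.0038), oocyte and eggshell (26, 0.07), major sperm protein (29, 0.22) and spermatogenesis genes (60, 0.14) had no called member, and neither had the 6 yolk protein genes (-0.18). In letter C the medians were 0.61 for major sperm proteins, 0.48 for spermatogenesis and -0.47 for oocyte and eggshell genes, while in letters A and B they were -0.0044 and -0.06, -0.02 and -0.13, and 0.21 and 0.19. Spermatheca and gonadal sheath genes had medians of -0.22, 0.05 and -0.67 in letters A, B and C. Of these 21 genes, 5 (23.8%) were lower in all 3 letters, beside 15.1% of all genes tested. The gap junction gene *inx-13* of that list had 45.8, 43.1 and 25.8 CPM in *fust-1*, against 63.3, 55.7 and 57.5 CPM in wild type, lower throughout but not called (-0.60, adjusted p = 0.9997).

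Immune and metabolic genes varied gene by gene. Of 132 C-type lectin genes, 27 (20.5%) were lower in all 3 letters and 15 (11.4%) were higher. These shares stand beside 15.1% and 12.6% of all genes tested. *clec-51* had 20.5, 14.4 and 17.6 CPM in *fust-1*, against 30.4, 31.7 and 35.02 CPM in wild type (log2 fold change -0.88), and *clec-84* had 36.1, 30.9 and 23.98 CPM in *fust-1*, against 59.0, 50.4 and 43.2 CPM in wild type (-0.73). Both lay below wild type in every library, without a call (adjusted p = 0.9997). *dod-22*, of the innate immune list of 90 genes (median 0.08), had 35.4, 44.5 and 41.2 CPM in *fust-1*, against 78.1, 82.8 and 49.5 CPM in wild type (-0.78, not called). Of 159 detoxification genes, 35 (22.01%) were higher in all 3 letters, beside 12.6% of all genes tested. Their median was 0.48 in letter C, but -0.05 and -0.08 in letters A and B. The 66 genes of fatty acid metabolism (0.05), 52 heat shock genes (-0.0015), 196 nuclear hormone receptor genes (0.14), 38 histone genes (0.06), 25 *pals* genes (0.08) and 8 male-specific genes (-0.07) held no called gene, medians in brackets. The delta-9 desaturase gene *fat-7* had 37.6, 51.2 and 17.9 CPM in *fust-1*, against 8.51, 17.2 and 23.2 CPM in wild type, with overlap.

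Loss of *fust-1* was measured a second time, in animals that lack *ceh-14*, with libraries that the first comparison did not use. The study made its double mutants by crossing single mutants. A variant carried along by the *fust-1* strain and an effect of losing FUST-1 therefore cannot be told apart here either. With *fust-1; ceh-14* set over *ceh-14*, edgeR called 5 of 16258 genes (0.0308%). These were *fust-1*, *ctl-1*, *wdr-54*, *C14A11.9* and *spig-5*. The calls depended on the libraries used: 0 genes were called when any 1 *fust-1; ceh-14* library was left out. Leaving out *ceh-14* A, B or C gave 5, 2 and 4 called genes. *ctl-1* had 0, 0 and 0.0411 CPM in *fust-1; ceh-14* A, B and C, against 8.97, 7.38 and 5.86 CPM in *ceh-14* A, B and C, as nearly absent as in *fust-1*. *wdr-54* had 5.22, 4.68 and 4.48 CPM in *fust-1; ceh-14*, against 0.815, 0.772 and 0.694 CPM in *ceh-14*, and rose (2.66, SE 0.18, adjusted p = 0.00683). Both flanking catalases kept their positions without a call, *ctl-2* at 105, 79.8 and 85.4 CPM in *fust-1; ceh-14*, against 79.0, 68.1 and 63.04 CPM in *ceh-14*, and *ctl-3* at 2.39, 3.68 and 3.12 CPM in *fust-1; ceh-14*, against 5.58, 6.21 and 5.68 CPM in *ceh-14*. With the letter as a term *ctl-1* and *fust-1* stayed under 0.01, and *wdr-54* was at 0.0170.

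Several genes that edgeR did not call in *fust-1*, but DESeq2 did, were apart again here. *jmjd-3.3* had 5.52, 4.62 and 5.01 CPM in *fust-1; ceh-14*, against 1.21, 1.55 and 1.29 CPM in *ceh-14* (log2 fold change 1.90, adjusted p = 0.0641). *T27A1.2* had 5.52, 4.35 and 3.92 CPM in *fust-1; ceh-14*, against 1.51, 1.27 and 0.565 CPM in *ceh-14* (2.04, adjusted p = 0.594). *M01H9.2* (1.43), *C26D10.3* (0.46) and WBGene00044220 (1.16) also lay higher in all 3 double mutant libraries. In all, 6 of the 12 named higher genes stood wholly above *ceh-14* in the double mutant, beside 2.69% of all genes tested in this background. Of the 12 named lower genes 3 stood wholly below it, *fust-1*, *ctl-1* and *ZC266.1*, beside 3.76%. *ZK402.1*, outside the named 24, had 3.17, 4.45 and 3.74 CPM in *fust-1; ceh-14*, against 0.941, 1.24 and 1.11 CPM in *ceh-14*.

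**Figure D5:**
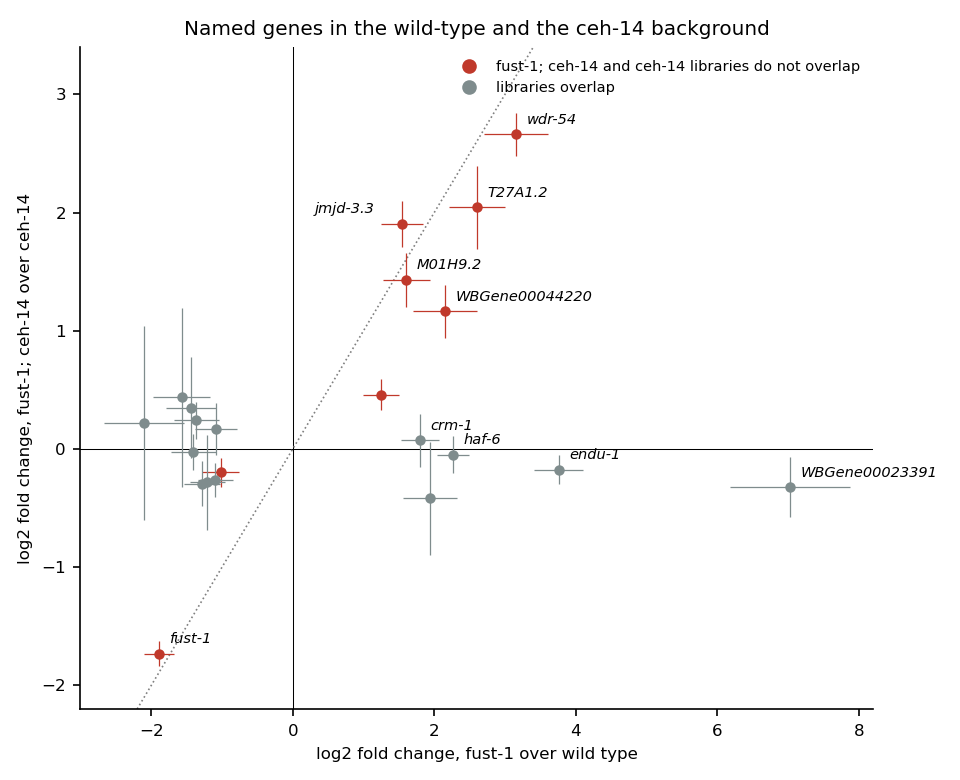
Log2 fold change of the named genes in *fust-1* over wild type (x axis) and in *fust-1; ceh-14* over *ceh-14* (y axis), with bars of 1 standard error and a dotted line of equal change. *ctl-1* (-8.98 and -8.38) is left out to keep the scale, *wdr-54*, *T27A1.2* and *jmjd-3.3* lie near the line, and *endu-1*, *haf-6*, *crm-1* and WBGene00023391 lie near 0 on the y axis.

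Other rises did not separate the genotypes in the *ceh-14* background. *endu-1* had 23.5, 23.6 and 20.3 CPM in *fust-1; ceh-14*, against 23.2, 26.7 and 26.8 CPM in *ceh-14*, so the level of *ceh-14* animals was already close to that of *fust-1*. *haf-6* had 8.57, 8.70 and 8.71 CPM in *fust-1; ceh-14*, against 8.28, 8.10 and 10.8 CPM in *ceh-14*, close to wild type. *crm-1* had 32.1, 19.4 and 24.2 CPM in *fust-1; ceh-14*, against 30.3, 19.7 and 22.95 CPM in *ceh-14*. Both *ceh-14* genotypes were thus alike for the 3 genes, at a high level for *endu-1* and at a low level for *haf-6* and *crm-1*. The cause was not tested. The interaction of both losses was called for 4 of 16862 genes (0.0237%), *endu-1* (-3.88, SE 0.36, adjusted p = 0.00335), *haf-6* (-2.27, 0.24, 0.00664), WBGene00023391 (-7.29, 0.83, 0.0106) and *C14A11.9* (-1.999, 0.25, 0.0233), but not for *crm-1* (-1.69, adjusted p = 0.923, and 0.0125 with the letter as a term). *sago-2* stood at 37.1, 34.9 and 30.6 CPM in *fust-1; ceh-14*, against 31.8, 32.8 and 22.9 CPM in *ceh-14*, with overlap.

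The levels in the *tdp-1* genotypes are given for the same genes. *endu-1* had 30.8, 33.1 and 28.3 CPM in *tdp-1* and 27.6, 34.7 and 44.5 CPM in *tdp-1; ceh-14*, so the 3 wild-type libraries are the lowest of all 18. *haf-6* had 37.1, 37.1 and 41.3 CPM in *tdp-1* and 8.38, 8.74 and 7.56 CPM in *tdp-1; ceh-14*, and was thus high in both single mutants of RNA-binding proteins and in neither double mutant. WBGene00023391 had 0.644 to 0.850 CPM in *tdp-1*, 1.16 to 1.63 CPM in *tdp-1; ceh-14* and 1.40 to 1.52 CPM in *ceh-14*. *wdr-54* and *crm-1* did not share this pattern, with 0.756 to 0.946 and 17.05 to 27.3 CPM in *tdp-1*. The lower gene *sago-2* had 15.5, 14.2 and 15.7 CPM in *tdp-1*, also below every wild-type library. It was not called there by edgeR (log2 fold change -0.95 over wild type, adjusted p = 0.0583). In *tdp-1; ceh-14* it had 39.96, 24.96 and 14.4 CPM. All single-mutant comparisons use the same 3 wild-type libraries, so for *endu-1* and WBGene00023391 a property of those libraries and an effect of losing FUST-1 cannot be told apart.

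The share of collagen genes lower in every letter was smaller in the *ceh-14* background. Of 137 collagen genes tested there, 13 (9.49%) were lower in *fust-1; ceh-14* than in *ceh-14* in all 3 letters, beside 15.8% of all genes, and the median log2 ratio was 0.01, -0.55 and 0.04 in letters A, B and C. The share was 14 of 85 (16.5%) for molting-cycle genes, with medians of -0.20, -0.43 and 0.33. For pharynx genes it was 3 of 25 (12%), with medians of -0.17, -0.96 and 0.18. *col-63* had 6.09, 2.98 and 42.8 CPM in *fust-1; ceh-14*, against 9.16, 20.3 and 7.17 CPM in *ceh-14*, lower in letters A and B and higher in letter C. *C14A11.9* and *spig-5* were called in this background alone. *C14A11.9* had 2.74, 2.21 and 2.65 CPM in *fust-1; ceh-14*, against 13.4, 13.5 and 12.18 CPM in *ceh-14*, while *fust-1* stood at 10.7, 9.33 and 7.96 CPM, against 11.902, 10.5 and 12.5 CPM in wild type. *spig-5* had 1.65, 1.74 and 1.79 CPM in *fust-1; ceh-14*, against 7.51, 8.41 and 7.27 CPM in *ceh-14*, and for this gene the interaction had an adjusted p of 0.110, and of 0.0469 with the letter as a term.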

How the data were processed

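The deposited values are read counts per gene (one WBGene identifier a row), which the authors made with STAR on the WBcel235 genome and HTSeq. The strand setting and annotation release of the counting are not given in the sources used here. Rows that name no gene were left out: no feature and ambiguous reads were 0.500% to 0.738% and 1.87% to 2.75% of the records of the *fust-1* libraries. Of 46726 identifiers, 46364 have coordinates in the WBcel235 annotation used here. CPM values use trimmed-mean (TMM) factors over all 18 libraries.

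Tests used edgeR 4.0.16 (filterByExpr, TMM, quasi-likelihood, Benjamini-Hochberg), with DESeq2 1.42.0 and limma 3.58.1 (voom with library weights) in R 4.3.3 as alternatives. The recovery of known fold changes was checked on simulated counts. Those held no outlying library such as *fust-1* C, so the check does not bear on the calls made here. Interactions used the 12 libraries of 4 genotypes. With 3 replicates a genotype, p-values measure only the spread between these libraries; the study describes them as biological replicates. The letters come from the sample titles. Deviations from the genotype means of same-letter libraries correlated at 0.571, 0.417 and 0.390 for A, B and C, so the letters pair the libraries and the letter was added as a block in an alternative fit.

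Genes named are the study's own genes and the catalases, the 12 genes with the smallest p in each direction among genes past a log2 fold change of 1 in size, at 1 CPM or more and with no overlap, and up to 2 genes of each of 31 lists. The comparison, the lists and the rule were chosen with earlier results of these data known. The 12 protein genes of the mitochondrial genome, matched by chromosome since their listed symbols matched none, had 0 counts in all 6 libraries.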

Additional observations from a re-analysis of the deposited data

Results flagged for a closer look

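For *endu-1*, *haf-6*, WBGene00023391 and *C14A11.9* the difference between strains with and without *fust-1* was not the same in the wild-type and the *ceh-14* background. This was the result of the interaction test of edgeR over 12 libraries. The interaction is the log2 fold change of *fust-1; ceh-14* over *ceh-14* minus that of *fust-1* over wild type. It was -3.88 for *endu-1*, -2.27 for *haf-6*, -7.29 for WBGene00023391 and -1.999 for *C14A11.9*. For *endu-1* and WBGene00023391, *ceh-14* libraries already stood at the level of *fust-1* libraries, and for *haf-6* both *ceh-14* genotypes stood at the level of wild type. The value of WBGene00023391 rests on 1 count in wild type and depends on the prior count. The part of the wild-type libraries, which enter the interaction, was not tested for these genes.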

How the results depend on the processing

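The count of 1 dysregulated gene in *fust-1* became 19 in DESeq2, 5 in limma with library weights, 5 without a filter on low counts, 2 with the replicate letter as a block, 8 with all 18 libraries in one fit and 0 without both C libraries, with or without that block. The count of 3 genes at an adjusted p under 0.05 became 27, 7, 9, 6 and 14 in the same order and 0 without both C libraries (294 with an unadjusted p under 0.05), or 4 there with the block (*ctl-1*, *endu-1*, *haf-6* and *crm-1*). Leaving out 1 library gave 0 to 2 dysregulated and 1 to 7 called genes (233 to 835 with an unadjusted p under 0.05). DESeq2 size factors gave 1 and 3. For *fust-1* mRNA the log2 fold change was -1.89 in DESeq2, -1.99 in limma, -1.91 without the filter, -1.91 with the block and -1.91 with 18 libraries, each then called, and -2.10 to -1.81 when 1 library was left out. In the *ceh-14* background 5 dysregulated genes became 2 with the block, 18 in DESeq2 and 0 to 0 when 1 library was left out (285 to 1944 with an unadjusted p under 0.05). The 2 dysregulated genes of the interaction became 7 in DESeq2 and 0 to 5 when 1 library was left out, an alternative added after the data were seen, and 3 with the block. The signs of uncalled genes turned in some settings. *tdp-1* was at -0.065 in limma and -0.019 to 0.25 with 1 library left out. *ceh-14* was at -0.013 without the filter, -0.10 with the block, -0.020 with 18 libraries and -0.23 to 0.33 with 1 library left out. *pqn-41* was at 0.10 in limma, 0.13 without both C libraries, 0.13 with the block there, and -0.63 to 0.26 with 1 library left out. *col-20* was at -0.031 in limma, -0.16 to 0.71 with 1 library left out, -0.097 without both C libraries and -0.097 with the block there. The cause of these shifts was not tested. Depth limits genes near 1 CPM, such as WBGene00023391, most in wild-type C. In fits with no library left out, the block changed calls of *fust-1*, WBGene00023391, *crm-1* and *spig-5*, given in the report, and of no other named gene.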
